A study of Mus musculus with 2 samples.

Results

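AP-1 and Bach transcription factors were followed in regulatory T cells (Treg), the Foxp3-dependent CD4 T cells that restrain immune responses. The genes described are Fos, Fosb, Fosl2, Jun, Junb, Jund, Batf3, Atf3, Bach2 and Bach1. They were taken by name, with every probe set (the group of short probes that reads 1 transcript) that the platform annotation pairs with exactly 1 of these symbols. This gave 16 probe sets for 10 genes, out of 45101 probe sets on the array. None of the probe sets listed under several symbols names any of these genes.

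One set of Treg came from mice labelled Foxp3 Cre/wtS Stat3 fl/fl, in which both copies of the transcription factor gene Stat3 are loxP-flanked. The Treg they were set against came from mice labelled Foxp3 Cre/wtS Stat3 fl/wt, with 1 loxP-flanked copy, so Cre recombinase was present in both genotypes. The series design text writes the Foxp3 alleles of the fl/fl mice as Cre/wt. The donors were females of 6 to 8 weeks, their spleens and lymph nodes were the source of the sorted cells, and RNA of each genotype was hybridised to 1 Affymetrix array. Foxp3 is X-linked, so in females with 1 Cre allele only part of the Treg express Cre. The labels state neither whether the sort kept Cre-expressing cells nor how many mice were pooled. Because each genotype has a single array, no replicate error can be given: every difference below is fl/fl minus fl/wt on the log2 scale, described without a test. The number of arrays limits the precision.

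AP-1 is a family of dimers of basic leucine zipper (bZIP) proteins. Fos proteins pair with Jun proteins, and Batf and Atf proteins pair with Jun as well. In T cells, AP-1 is assembled after antigen receptor and MAP kinase signalling and binds DNA with partners such as NFAT. Fos, Fosb, Jun, Junb and Atf3 are immediate-early or stress genes whose transcripts accumulate within minutes, also when tissue is dissociated and cells are sorted. Bach1 and Bach2 are bZIP repressors that pair with small Maf proteins and bind sites overlapping those of AP-1. Bach2 holds T cells in a resting state and limits effector programmes in Treg.

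Promoter letters are shown for the 4 genes in which a searched motif was found, because the comparison concerns a DNA-binding factor and these genes are themselves regulated by signals. The sequences are from RefSeq (GRCm38.p6), where all 10 genes had 1 window each. Only the 250 bases before the annotated start were searched, on both strands, and positions count back from that start. The palindromic core bound by STAT proteins, TTCNNNGAA, was found before Bach2 and Batf3, that is in 2 of 10 genes, against 7.02% of all 32851 windows. The letters TGACGT, which form the larger part of the cyclic AMP response element TGACGTCA, were found before Fos and Atf3, against 6.47% of all windows. The whole element TGACGTCA (1.55% of all windows) and the AP-1 site TGANTCA (6.75%) were in none of the 10 windows. TGACGT also lies inside TGACGTCA. The letters TATAA on the gene's strand (16% of all windows) were found before Fos only among these genes. In the lines below the capitals mark these motifs, and each sequence reads 5′ to 3′ on the gene's strand. A match of letters does not show binding.

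Fos, chr12:85473790-85473889, plus strand, bases 100 to 1 before the start, capitals TGACGT and TATAA: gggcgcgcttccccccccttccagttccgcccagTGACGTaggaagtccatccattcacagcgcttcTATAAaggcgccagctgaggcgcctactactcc
Atf3, chr1:191183334-191183433, minus strand, bases 100 to 1 before the start, capitals TGACGT read on the other strand: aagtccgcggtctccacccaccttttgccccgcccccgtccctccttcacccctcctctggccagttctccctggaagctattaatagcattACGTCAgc
Bach2, chr4:32417265-32417334, plus strand, bases 170 to 101 before the start, capitals the STAT core: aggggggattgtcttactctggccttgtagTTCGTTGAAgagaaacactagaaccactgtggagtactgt
Batf3, chr1:191098164-191098233, plus strand, bases 250 to 181 before the start, capitals the STAT core: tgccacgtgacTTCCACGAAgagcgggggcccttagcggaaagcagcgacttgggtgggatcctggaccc

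All 10 genes were measured in both arrays, meaning that at least 1 probe set lay at or above log2 5 in each. Values under log2 5 lie in the dense low end of the scale and have no order. Taking each gene's probe set with the highest mean, 7 genes were higher and 3 lower in fl/fl, with differences from -0.29 to 0.18 and a median of 0.0083. Of all 9774 genes measured, 47.5% were higher in fl/fl and the median was -0.0045. The directions depend on the scaling: with each array centred on its median, 4 of the 10 genes were higher and 6 lower, and 31.5% of all genes were higher. Those medians over all probe sets, 3.50 in fl/fl and 3.47 in fl/wt, lie under log2 5. With quantile normalisation or loess, 7 genes stayed higher and 3 lower. None of the 10 genes reached 1.5-fold (0.585 on the log2 scale), which 0.645% of all measured genes did. None reached a ratio of 5 to 4 either (0.32 on the log2 scale), against 3.1% of all measured genes. At 1.1-fold (0.14 on the log2 scale, a threshold added after the values were seen) 1 gene was higher, Batf3, against 7.77% of all genes, and 2 were lower, Fosl2 and Atf3, against 9.09%.

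**Figure D1:**
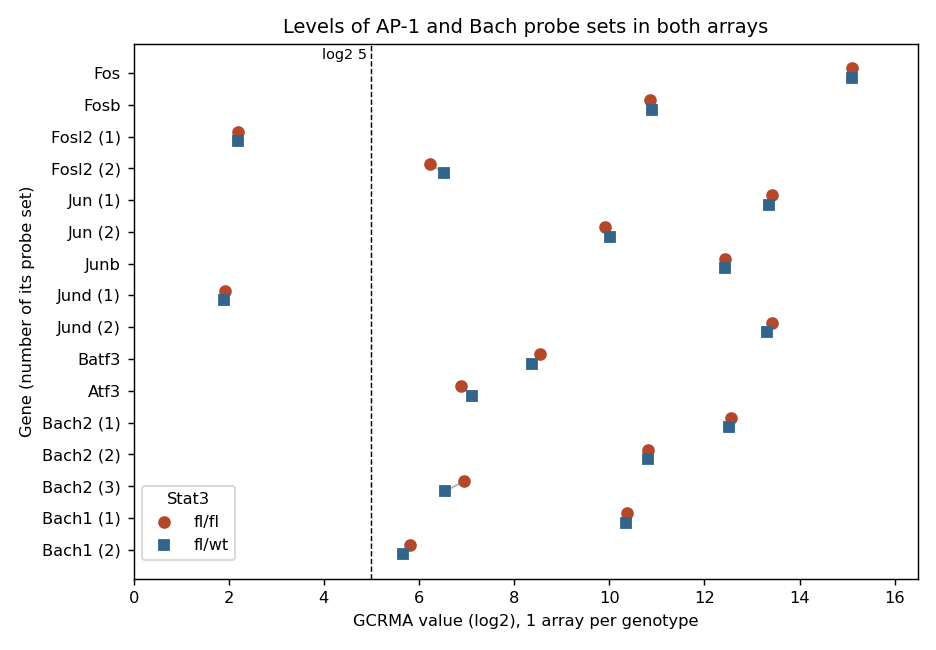
GCRMA values (log2) of the 16 probe sets of the AP-1 and Bach genes in the fl/fl array (circles) and the fl/wt array (squares), 1 row per probe set, with log2 5 as a dashed line. The 2 symbols nearly coincide for Bach2 (2), Junb, Fos and Bach1 (1), and lie farthest apart for Bach2 (3), Fosl2 (2) and Atf3.

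The Fos and Jun immediate-early genes were abundantly read in both arrays and hardly differed. Fos, the partner of Jun in the classical AP-1 dimer, read 15.10 in fl/fl and 15.09 in fl/wt, a difference of 0.0058. Its close relative Fosb read 10.87 in fl/fl and 10.89 in fl/wt, a difference of -0.027. Each of these genes has a single probe set here.

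Jun, the founding Jun protein, was read by 2 probe sets that went opposite ways. The brighter read 13.42 in fl/fl and 13.35 in fl/wt, a difference of 0.070. The dimmer read 9.92 in fl/fl and 10.02 in fl/wt, a difference of -0.099. The annotation gives both probe sets the same transcript accession, so the direction of Jun depends on which is read. Junb, which pairs with Batf in activated T cells, read 12.43 in both arrays and differed by 0.0042. Jund, a Jun protein that is expressed also in resting cells, read 13.43 in fl/fl and 13.32 in fl/wt, a difference of 0.11. Its other probe set was under log2 5 in both arrays, at 1.92 in fl/fl and 1.90 in fl/wt.

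The genes with the largest differences were Fosl2, Atf3 and Batf3. Fosl2 encodes Fra-2, a Fos protein that takes part in T helper cell differentiation. Its probe set above log2 5 read 6.23 in fl/fl and 6.52 in fl/wt, a difference of -0.29, so that fl/wt was 1.22-fold higher. The other Fosl2 probe set was under log2 5, at 2.20 in fl/fl and 2.19 in fl/wt. Atf3, a stress-induced factor that can repress inflammatory genes, read 6.89 in fl/fl and 7.12 in fl/wt, a difference of -0.23. Batf3, a partner of Jun best known for the development of cross-presenting dendritic cells, read 8.54 in fl/fl and 8.37 in fl/wt. This difference of 0.18 is 1.13-fold. None of these genes had a second probe set at or above log2 5.

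Bach2, the repressor that opposes AP-1 in T cells, was read by 3 probe sets. The brightest read 12.55 in fl/fl and 12.51 in fl/wt, a difference of 0.038. The next read 10.82 in both arrays, a difference of -0.0037. The dimmest read 6.94 in fl/fl and 6.56 in fl/wt. Its difference of 0.39, or 1.31-fold, was the largest of the 16 probe sets and had no counterpart in the other pair. Bach1, which represses heme oxygenase and other oxidative stress genes, read 10.37 in fl/fl and 10.36 in fl/wt, a difference of 0.011. Its dimmer probe set read 5.81 in fl/fl and 5.67 in fl/wt, a difference of 0.14.

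Differences were wider where probe sets were dim, for these genes and for the array as a whole. Of the 14 AP-1 and Bach probe sets at or above log2 5 in both arrays, 9 were higher and 5 lower in fl/fl. That share was not counted over all probe sets, but 47.5% of all measured genes were higher at their brightest probe set. The 4 with a mean below log2 8 (Fosl2, Atf3 and the dimmest of Bach2 and of Bach1) all differed by more than 1.1-fold, as did 43.5% of the 4394 named probe sets of that level. Their differences, -0.29 to 0.39, lay inside the central 95% of that group, which ran from -0.49 to 0.43. Of the 5 with a mean from log2 8 to 11, Batf3 alone passed 1.1-fold, as did 17.3% of the 7410 named probe sets of that level. Its 0.18 lay inside their central 95%, -0.23 to 0.21. None of the 5 with a mean of log2 11 or more passed 1.1-fold, as did 2.32% of the 4695 named probe sets there. Jund, at 0.11, lay just inside their central 95% of -0.11 to 0.12.

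**Figure D2:**
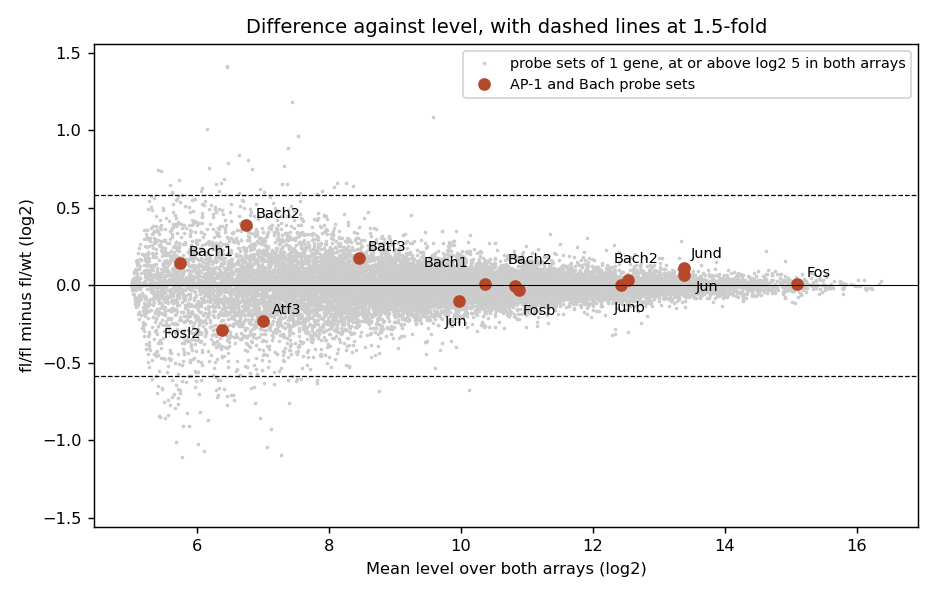
Difference fl/fl minus fl/wt (log2) against the mean level over both arrays (log2), for all probe sets of 1 gene at or above log2 5 in both arrays (grey) and for the 14 AP-1 and Bach probe sets among them (red, with gene names). Dashed lines mark 1.5-fold, and no red point lies beyond them.

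The other bZIP genes, which can pair with or compete with AP-1, showed differences of the same small size. Of 36 listed, 33 had a probe set of 1 symbol and 27 were measured, 12 higher and 15 lower in fl/fl, with a median of -0.013. None passed 1.5-fold. Batf, the bZIP partner of Irf4 in T cells, read 11.26 in fl/fl and 11.20 in fl/wt, a difference of 0.055. Jdp2, a repressor that dimerises with Jun, differed by 0.068 at 7.43 in fl/fl and 7.36 in fl/wt. Fosl1, which encodes the Fos protein Fra-1, was under log2 5 in both arrays. A dimmer Atf6 probe set differed by 0.66, past 1.5-fold. At the brightest probe sets, the largest differences were 0.20 for Atf6b and 0.17 for Atf6, factors of the unfolded protein response. Then came -0.13 for the circadian factor Dbp, 0.12 for the stress factor Ddit3, whose other measured probe set differed by -0.050, -0.083 for Cebpg and -0.081 for Tef. Atf6b and Atf6 were the only measured genes of this list past 1.1-fold, both higher in fl/fl and 7.41% of the list, against 7.77% of all genes measured.

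Of 9 listed genes whose proteins bind DNA with AP-1 or control its turnover, all were measured, 5 higher and 4 lower, with a median of 0.0058. For comparison, 47.5% of all genes measured were higher. Irf4, the partner of Batf and Jun, differed by -0.057 and Irf8 by 0.043. The ubiquitin ligase genes Fbxw7, Cop1 and Itch, whose products target Jun, differed by 0.15, 0.057 and -0.056, and another probe set of Fbxw7 by -0.14. Runx1 differed by 0.060, with its other probe sets on the lower side.

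Other immediate-early genes, many of them induced alongside Fos and Jun by activation or cell handling, were also mostly nearly level. Not every gene listed need rise on activation: Klf2 (-0.0025), Btg1 (-0.015) and Zfp36l2 (0.059) are on it too. The counts below are therefore not of induced genes alone. All 30 listed genes were measured in both arrays, 15 higher and 15 lower in fl/fl, with a median of 0.00040 and none past 1.5-fold. Of all measured genes, 47.5% were higher and 0.645% passed 1.5-fold. With each array centred on its median the counts were 6 higher and 24 lower, a scaling under which 31.5% of all genes were higher. Egr1, a zinc finger factor induced through MAP kinases, read 13.19 in fl/fl and 13.12 in fl/wt, a difference of 0.065. Nr4a1, a reporter of antigen receptor signalling, read 12.86 in both arrays and differed by -0.0034. Cd69, an early activation antigen, differed most, at 12.45 in fl/fl and 12.19 in fl/wt (0.26). That lay outside the central 95% of named probe sets with a mean of log2 11 or more, -0.11 to 0.12. It is the largest of 30 differences, and such a range leaves out some probe sets by definition. Ier3 followed on the lower side at -0.17, then the MAP kinase phosphatase Dusp5 at -0.10, Rgs1 at 0.067, Myc at -0.066 and Egr3 at 0.066. These transcripts, like those of Fos, Jun and Junb, were above log2 5 in both genotypes. No array of unsorted or rested cells is part of this comparison, so whether their levels come from activation in the animal or from handling was not tested.

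Heat shock genes, a further group that responds to cell stress, had 11 of 12 measured members higher in fl/fl, against 47.5% of all measured genes, with a median of 0.030. Most of these differences were small: 2 of the 12 (16.7%) passed 1.1-fold, as did 16.9% of all measured genes, and none of the 12 passed 1.5-fold. The chaperonin gene Hspe1 read 13.47 in fl/fl and 13.18 in fl/wt (0.29), outside the central 95% of its level, -0.11 to 0.12. Its other, dimmer measured probe set differed by -0.026. Hspa1a, an inducible Hsp70 gene, read 8.24 in fl/fl and 8.02 in fl/wt (0.22), just outside the central 95% of its level, -0.23 to 0.21. Hsp90aa1 (0.058), Hspa1b (0.034), Hspa8 (0.033) and Hspa5 (0.030) followed. Their other probe sets differed by up to 0.22 for Hspa8 and 0.29 for Hspa5, each also outside the central 95% of its level. All of these were named for their size, and such a range leaves out some probe sets by definition. For Hspa1b they differed by -0.12 and 0.14, and for Hsp90aa1 by -0.0042 and 0.057. Hspa1a and Hspa1b are near-identical copies, so their probe sets may share signal. The count depended on the scaling and on the probe sets read: 5 members were higher and 7 lower with each array centred on its median, a scaling under which 31.5% of all genes were higher.

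Genes linked to Bach and small Maf proteins differed by less than 1.1-fold at their brightest probe sets. A dimmer Il7r probe set differed by -0.14, past 1.1-fold, and the brightest of Il7r by -0.023. Of 20 listed, 15 were measured, 2 higher and 13 lower in fl/fl, with a median of -0.028. Of all measured genes 52.5% were lower, and 16.9% passed 1.1-fold in either direction. Prdm1, which encodes Blimp-1 and is repressed by Bach2, read 10.04 in fl/fl and 10.06 in fl/wt, a difference of -0.017. Hmox1, heme oxygenase and the classical target of Bach1, read 12.18 in fl/fl and 12.27 in fl/wt, a difference of -0.085. The small Maf genes Mafk and Mafg, whose products pair with Bach proteins, differed by -0.056 and -0.028. Gata3 (-0.071), S100a4 (-0.063) and Gclc (-0.058) were on the lower side, although another probe set of Gclc differed by 0.073. Txnrd1, thioredoxin reductase, was on the higher side at 0.097.

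The list of MAP kinase genes, which lie upstream of AP-1, also holds the transcription factor genes Elk1, Elk4, Srf, Mef2a and Mef2d. It had 15 measured members of 18 listed, 5 higher and 10 lower in fl/fl, with a median of -0.024 and none past 1.5-fold. Of all measured genes, 52.5% were lower and 0.645% passed 1.5-fold. The largest differences were -0.20 for Mef2a, whose 3 other measured probe sets were on the higher side, and -0.17 for Map2k3. Mapk8, which encodes the Jun kinase JNK1, differed by -0.13 and its other probe sets by 0.078 and 0.082. Elk1 (-0.12), a factor that acts on the Fos promoter, Map2k1 (-0.10) and Map2k4 (0.083) came next.

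**Figure D3:**
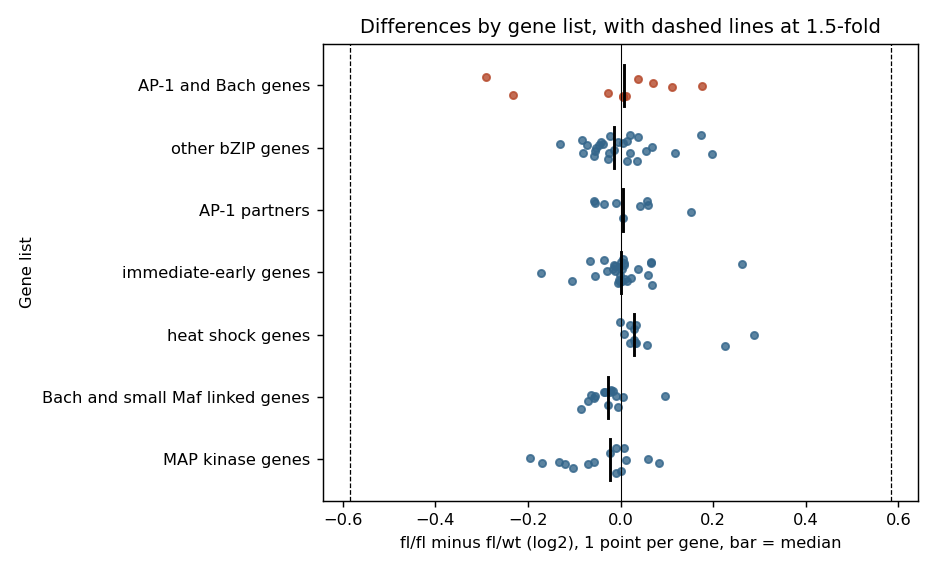
Difference fl/fl minus fl/wt (log2) of each measured gene of 7 lists, 1 point per gene at its brightest probe set, with the list median as a bar and dashed lines at 1.5-fold. All points lie inside the dashed lines. Fosl2 and Atf3 are the leftmost points of the top row.

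Levels of cell markers bear on how these values can be read, since other cells also express AP-1 genes. In bulk RNA, fewer cells of a type and less RNA per cell cannot be told apart. Of 9 Treg and T cell markers, 8 were measured, with differences from -0.10 to 0.088, while the Foxp3 probe set was under log2 5 at 3.52 in fl/fl and 4.09 in fl/wt. Of 10 myeloid markers, 9 were measured in both arrays and differed by -0.071 to 0.053. Their linear levels, summed here and below over the measured genes of a list, came to 72243 in fl/fl and 72229 in fl/wt. The Treg and T cell markers summed to 106170 in fl/fl and 107556 in fl/wt. In fl/fl the myeloid genes Csf1r (14.00) and C1qa (13.83) read near the T cell genes Cd3g (14.15) and Cd3e (13.40). B cell markers had 5 of 8 measured, with differences from -0.34 to 0.16 and a summed level of 2032 in fl/fl and 2157 in fl/wt. Among markers of dendritic cells, in which Batf3 acts, Itgax read 7.01 in fl/fl and 6.81 in fl/wt. Xcr1, Flt3, Zbtb46, Siglech and Cd209a were under log2 5 in both arrays. Itgax alone, the only measured gene of that list, had a linear level of 128.9 in fl/fl and 112.04 in fl/wt. CD8 and NK markers had 4 of 6 measured (-0.062 to 0.27) and a summed level of 2420.1 in fl/fl and 2410.1 in fl/wt. Red cell and platelet markers had 2 of 5 measured (-0.28 and 0.20), with 126.5 in fl/fl and 132.1 in fl/wt. The part of these cells in the AP-1 and Bach values was not tested.

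Stat3 itself had 3 probe sets above log2 5 in both arrays, with differences of -0.0083, -0.019 and -0.083. The brightest read 11.99 in fl/fl. The labels do not say which exons are loxP-flanked or whether any of these probe sets reads them, so the values do not check the genotypes, and the directions above rest on the labels.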

How the data were processed

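Total RNA from sorted Treg was hybridised to 1 Affymetrix array per Stat3 genotype, per the labels. The authors deposited log2 values per probe set (0.53 to 16.9), made with GCRMA per the submitters' processing notes. Neither its version nor the full set of arrays normalised together is stated there. GCRMA subtracts a sequence-based background and normalises arrays to each other, which compresses dim probe sets into a low end with no order.

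A probe set took its gene name from the platform annotation where that gives 1 symbol (34958 probe sets; 932 had several). All 16 AP-1 and Bach probe sets matched the RefSeq table of GRCm38.p6 by Entrez identifier. Lists were read at each gene's probe set with the highest mean; a gene was kept if either array reached log2 5, and lower values were set to 5 in differences. No p-value is given, as there are no replicates. Every AP-1 and Bach gene is named. Of other lists, the text names up to 6 genes with the largest differences and direct counterparts fixed by role (such as Batf, Prdm1 and Egr1). The genes and lists were chosen with earlier results of these data known. Calculations used Python 3.11.15 and pandas 2.3.3.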

Additional observations from a re-analysis of the deposited data

How the results depend on the processing

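None of the 10 AP-1 and Bach genes passed 1.5-fold under any of the 9 alternatives. On the values as reported, at the brightest probe sets, none passed 2-fold or a ratio of 5 to 4. On those values 3 passed 1.1-fold, a threshold added after the data were seen. The dimmest Bach2 probe set, at 0.39, did pass the ratio of 5 to 4. Fosl2 ran from -0.32 to -0.15, Atf3 from -0.26 to -0.19, Batf3 from 0.14 to 0.18 and Jund from 0.055 to 0.11. Signs changed for Fos (-0.026), Junb (-0.027) and Bach1 (-0.021) with median centring and for Jun (-0.014) as the median of its probe sets. Median centring moved the median of all genes by -0.031 and gave, higher and lower in fl/fl, 4 and 6 AP-1 and Bach genes, 6 and 24 immediate-early genes and 5 and 7 heat shock genes. It left 7 other bZIP genes, 1 Bach-linked gene and 2 genes of the MAP kinase list higher. Heat shock counts were 7 and 3 when a gene was read as its median probe set, 6 and 4 without shared-suffix probe sets, and none lower (0) with quantile normalisation or loess. Bach-linked genes higher numbered 1 with a floor of 6 or loess, 5 with no floor or filter and 4 by the median probe set. Genes of the MAP kinase list that were higher numbered 2 without shared-suffix probe sets and 3 by the median probe set. AP-1 partners that were higher numbered 3 by the median probe set. The causes were not tested. In all, 322 values stayed within 1.5 times (counts) or 0.19, the SD between probe sets of 1 gene (differences). That SD is wider than most of the differences of the AP-1 and Bach genes. The sign changes above are therefore among the 322, which says little about the small differences. Counts past 1.5-fold, 0 in every list and alternative, are among them too. Differences were wider for dim probe sets, and whether signal over background limits them was not tested.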
